A study of Oryza sativa Japonica Group with 6 samples.

Results

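The brightest transcripts of rice synergid cells were described from 3 of the 6 Affymetrix rice genome arrays of a study of embryo sac accessory cells. On each of the 3 synergid arrays the 57258 probe sets that were not array controls were ranked by signal, and the description covers what ranked highest on all 3. A probe set is a group of short probes on the array that reports 1 transcript. The samples were wild-type Oryza sativa ssp. japonica, cultivar Katy, grown in a greenhouse, and both cell types were taken from florets at anthesis, the day the flower opens. Synergids were dissected without enzymes from the micropylar part of the embryo sac, and the antipodal cells of the other 3 arrays from its chalazal part. The antipodal arrays serve here as a reference line only. The titles number the arrays as biological replicates without naming plants or days. The labelling protocol describes collections of egg cells and zygotes, so how many synergids lie behind an array is unknown.

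Synergids lie beside the egg cell at the micropylar pole of the embryo sac. In flowering plants they secrete the small proteins that guide the pollen tube. The synergid that receives the tube degenerates around the time the tube bursts. The inner wall of synergids is thickened into the filiform apparatus, through which secreted material leaves the cell. Antipodals lie at the opposite pole and are known in grasses for multiplying into a cluster of cells with dense cytoplasm.

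The 3 synergid arrays carried the same scaling, with a trimmed mean signal of 500.1 on each. Their median signals were 46.5, 67.1 and 63.4 for arrays 1, 2 and 3. Spearman's rank correlation was taken over all 57258 probe sets, which are not independent. The arrays carry the same probes, so differences in probe binding are common to all of them. The correlation was 0.791 between synergid arrays 1 and 2, 0.837 between 1 and 3 and 0.793 between 2 and 3. Synergid array 1 correlated with antipodal arrays 1 and 3 at 0.827 and 0.818, so it stood as close to these antipodal arrays as to its own group. Synergid array 3 did so at 0.803 and 0.802, above its 0.793 with synergid array 2 and below its 0.837 with array 1. For synergid array 2 the values were lower, 0.757 and 0.767. Antipodal array 2 stood apart from every synergid array, at 0.644 to 0.671. On synergid arrays 1, 2 and 3 the 25S ribosomal RNA control gave 19876, 1420 and 2113 and the 18S control 25134, 2347 and 27482, so array 1 stood apart in the first only. Array 1 had an actin 3' to 5' probe ratio of 238 against 77.9 and 91.6, a measure of how far the labelled RNA is biased to its 3' end. On antipodal arrays 1, 2 and 3 the 25S control gave 16462, 2088 and 3280, and the actin ratio was 221, 87.8 and 689. The high 25S signal of synergid array 1 was therefore shared by antipodal array 1, which bears the same replicate number. The 12 poly-A control probe sets had geometric mean signals of 3865, 41189 and 6738 on synergid arrays 1, 2 and 3. On the antipodal arrays these were 7597, 134411 and 53145, so array 2 was the highest of each group. The part of all these differences in the ranks was not tested.

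A rank within an array does not depend on how the array was scaled or on a log. It does depend on how well the probes of a probe set bind, so a brighter probe set is not shown to report a more numerous transcript than a dimmer one, and the ranks below order signals. Fewer cells of a type and less RNA per cell cannot be told apart in such samples.

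The top of the ranking was shared by the 3 arrays. In all, 65 probe sets ranked within 100 on each of the 3 synergid arrays, 28 ranked within 50 on each and 337 within 500. The signal at rank 100 was 29918, 33537 and 32525 on arrays 1, 2 and 3, so the limit fell at a similar brightness on each. Of the 65 probe sets, 53 matched 1 gene and stood for 48 genes, 15 with a name and 33 known by locus only, and 12 matched no gene here. The worst rank of a probe set, used below to order them, is the largest of its 3 synergid ranks. Osr40c1 was the named gene just inside the limit, with a worst rank of 100, and Eno1 stood just outside at 101.

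The ranking was also looked up on arrays that had not chosen it. The probe sets within rank 100 on synergid arrays 2 and 3 numbered 77, and 65 of them (84.4%) lay within 100 on array 1. With array 2 held out the count was 65 of 74 (87.8%), and with array 3 held out 65 of 73 (89.0%). Over the 3 rounds 87.1% lay within 100, 97.3% within 200 and 100% within 500 on the array held out. The lowest placed on the held-out array was LOC4345338, at rank 398 on synergid array 2. The 65 were the same probe sets in every round, so the rounds restate the overlaps between arrays and are not independent. Within rank 100, pairs of synergid arrays shared 73 to 77 probe sets, and pairs of a synergid and an antipodal array 61 to 77.

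Transcripts of the protein-making machinery led the named genes. RPS21, a protein of the small ribosomal subunit, gave signals of 42740, 61644 and 55504 on synergid arrays 1, 2 and 3, at ranks 15, 15 and 13. It held nearly the same place on all 3 arrays although its signal on array 1 was the lowest. Of 25 ribosomal protein genes matched by symbol, 3 had a worst rank within 100, 12 within 500 and none beyond rank 28629, the midpoint of the array. RPS27AA, which encodes a ubiquitin joined to a small-subunit protein, gave 37586, 41642 and 39759, and RPS3A gave 32652, 40468 and 36324. RPL39C of the large subunit followed at a worst rank of 162. The median worst rank of the ribosomal list was 633, against 13517 over all 17905 genes matched and 11575 over the 2457 genes with a name. It was 393 without synergid array 1, and 1697 when every probe set of a gene was counted, against 16025.5 over all probe sets with 1 gene. Only 262 of the 17905 genes, 1.46%, had a worst rank within 500, and 67 of the 2457 with a name, 2.73%.

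Genes of the translation factor list stood next. TCTP, the translationally controlled tumour protein, gave 40405, 63472 and 53567 on the 3 synergid arrays. It was counted in that list although its name describes how it is controlled and not a translation factor. GOS2, which encodes the initiation factor eIF1, gave 39350, 74314 and 59632, and ranked 35, 5 and 9. Both were clearly dimmer on array 1 than on array 2, and GOS2 had the second widest spread of the 65 probe sets, an SD of 0.47 on the log2 scale. EF-1-alpha, the elongation factor that brings aminoacyl-tRNA to the ribosome, gave 29196, 44842 and 37694 with a worst rank of 107, on a probe set whose probes also match related copies. In total 4 of the 10 genes of the translation factor list, TCTP among them, lay within 500. The median worst rank of the list was 1303.5, which became 3223 with every probe set counted.

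**Figure D1:**
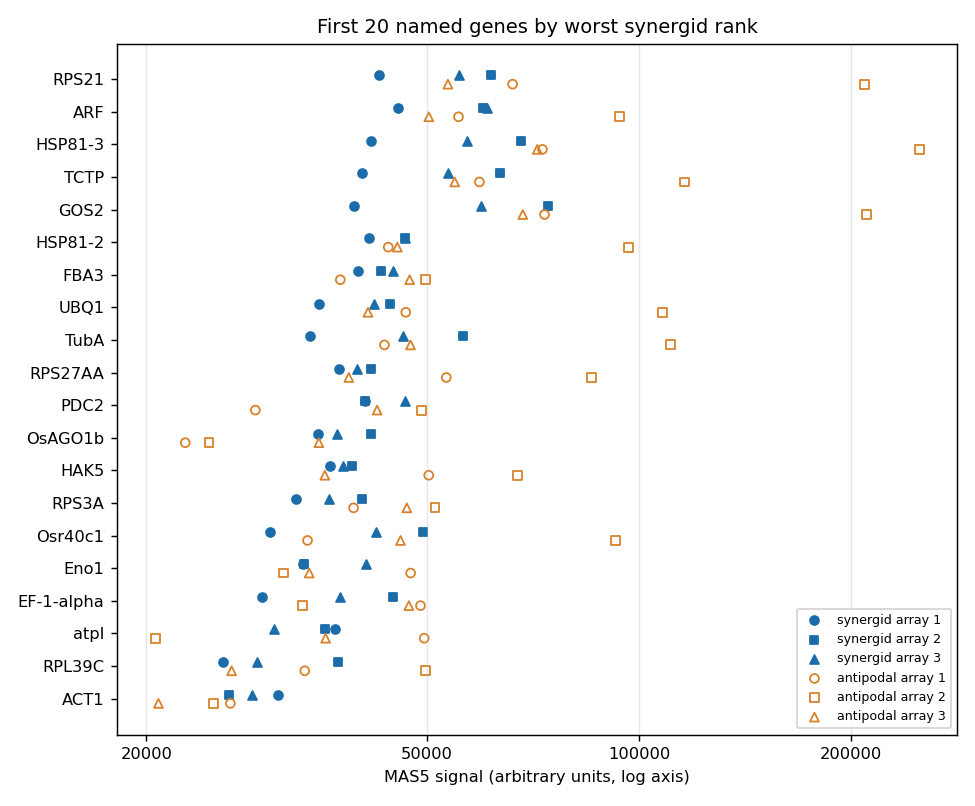
Signal (log axis, arbitrary MAS5 units) of the first 20 named genes ordered by worst synergid rank, with filled markers for the 3 synergid arrays and open markers for the 3 antipodal arrays. RPS21 heads the list, the synergid values of HAK5 lie between 36464 and 39145, and antipodal array 2 gives the highest signal for many of the genes.

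Chaperones of the Hsp90 family, which help signalling proteins to fold, were bright through several members. HSP81-3 gave 41714, 68094 and 57059 on synergid arrays 1, 2 and 3, and HSP81-2 gave 41394, 46580 and 46527. HSP81-1 lay at 14982, 15503 and 14813, a spread of only 0.03 on the log2 scale, with a worst rank of 481. The probe set of HSP81-3 can also bind related genes, and the family is close in sequence, so its members are not cleanly separated. These 3 were the only ones of 43 heat shock genes and factors within 500, and the median worst rank of that list was 14628, close to that of all genes.

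Glycolysis and fermentation were represented by 6 of 24 genes within 500. FBA3, a fructose-bisphosphate aldolase, gave 39944, 43026 and 44699 on arrays 1, 2 and 3. PDC2, a pyruvate decarboxylase that takes pyruvate into ethanol fermentation, gave 40880, 40864 and 46595. Both kept their level over the arrays, with SDs of 0.08 and 0.11 on the log2 scale. Eno1, an enolase, gave 33403, 33436 and 41048, and TPI, triosephosphate isomerase, had a worst rank of 304. The aldolase FBA1 and the glyceraldehyde-3-phosphate dehydrogenase GAPC3 followed at 389 and 396. No member of the list of 10 mitochondrial energy genes reached 500, and its first, the cytochrome oxidase subunit gene COX5c, gave 11792, 11421 and 10161 with a worst rank of 768. The list held mainly SDH genes, for subunits of succinate dehydrogenase, so it does not stand for mitochondrial energy genes at large. The median worst rank of that list was 3574, ahead of the 6305.5 of the glycolysis list, which also held many dim genes. With every probe set counted the medians were 5742 and 13370.

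Cytoskeleton and protein turnover genes followed. TubA, an alpha-tubulin, gave 34188, 56296 and 46279, and all 3 of its probe sets had a worst rank within 500. TUB5, a beta-tubulin, gave 24293, 24917 and 26867. ACT1, an actin, gave 30737, 26220 and 28236 on the probe set with its better worst rank, 166, and 26295, 41861 and 25865 on another. Within 500 lay 3 of 24 tubulin, actin and actin-depolymerising factor genes. UBQ1, a ubiquitin joined to a ribosomal protein, gave 35097, 44360 and 42034, and UBQ6 and UBQ2 stood at worst ranks of 284 and 298. UBQ6 and the ribosomal gene RPS27AB are names of the same locus, which is counted in both lists. The gene listed as ARF, a symbol used both for ADP-ribosylation factors and for auxin response factors, gave 45537, 60127 and 60819, and it was the only member of the 21 in the list of endoplasmic reticulum and vesicle genes within 500.

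Small RNA genes had a bright member among the first 20. The argonaute OsAGO1b, of the class that carries microRNAs, gave 35019, 41601 and 37289 on arrays 1, 2 and 3, at ranks 60, 66 and 72. AGO4A, of the class linked to RNA-directed DNA methylation, gave 20886, 30105 and 29871 with a worst rank of 241, and AGO1A gave 9349, 10632 and 10738. The 18 argonaute and small RNA genes had a median worst rank of 4292, and none lay beyond rank 28629.

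HAK5, a potassium transporter, was bright and among the steadiest, with 36464, 39145 and 38023 and an SD of 0.05 on the log2 scale. A second probe set matched to HAK5 had a worst rank of 55268, near the bottom of the array. The other 53 genes in the list of potassium and metal transporters all lay beyond 500, and HAK7, the next of them, gave 10589, 3627 and 4505. Osr40c1, an abscisic acid-responsive gene, gave 29918, 49358 and 42410. The plastid gene atpI, for a subunit of the ATP synthase, gave 37011, 35809 and 30393 and had a worst rank of 119.

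The brightest probe sets of all belonged to genes that the tables used here know by locus only. LOC9266083 gave 61144, 74534 and 74439 on synergid arrays 1, 2 and 3, and ranked 1, 4 and 1. LOC4352868 gave 47675, 83314 and 67625 and ranked 4, 1 and 2. Between them these loci took the first place on each synergid array. LOC4328121 gave 47755, 71717 and 60503 with a worst rank of 8, and LOC4333690 gave 43484, 72922 and 60580 with a worst rank of 12 on its better placed probe set. LOC4325478, LOC4325282, LOC4333306, LOC4329423, LOC4327414 and LOC4328390 completed the first 10, with worst ranks from 22 to 30. The first of the probe sets without a gene here, Os.48500.1.A1_s_at, gave 42983, 60891 and 56252. After it came Os.12237.1.S1_a_at, Os.38457.1.S1_s_at, Os.12237.2.S1_a_at and Os.22573.1.S1_x_at, at worst ranks of 22, 24, 45 and 56. Without a description no function can be given to these loci, and they make up most of the top of the ranking.

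The bright probe sets had features that the ranking did not use. Of the 65, 56.9% carried a suffix that the array maker gives to probe sets with probes shared among transcripts, against 19.9% over all 57258, and among the 337 within 500 the share was 32.6%. Probe sets built from predicted genes made up 4.62% of the 65 and 44.5% of all, and 81.5% against 39.2% matched 1 gene. Of the 48 genes, 27 had more than 1 probe set, and for 3 of these every probe set lay within 500. For 20 of the 27 a further probe set had a worst rank beyond 5000, and for 11 it lay beyond 28629. A gene was thus often bright on 1 probe set and dim on another.

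Steadiness was measured as the SD of log2(signal + 16) over the 3 synergid arrays. Its median was 0.23 over the 65 probe sets, with a range of 0.04 to 0.48, 0.22 over the 337 within 500 and 0.55 over all 57258. The 65 and the 337 had to rank high on all 3 of these arrays, which leaves out probe sets that vary widely. Their low SD was thus partly fixed by the choice. Over the 100 highest by mean log2 signal, chosen without that condition, the median was 0.24. The steadiest of the 65 was OsAffx.14373.1.S1_s_at, with 38570, 39379 and 40867. LOC4333610, with 33281, 35505 and 33691, had an SD of 0.05. HAK5, LOC4338972 and Os.27314.1.S1_at were next, at 0.05, 0.06 and 0.07. The least steady was LOC4338802, with 34083, 60951 and 34116, followed by GOS2, a second probe set of LOC4333690, a second probe set of TCTP, and LOC4352868, whose SD was 0.41. Of the 65 probe sets, 57 were lowest on array 1 and 44 were highest on array 2, so most moved together over the arrays. Among genes below the very top, LTPL1, a lipid transfer protein gene, gave 12188, 12257 and 12390, with an SD of 0.01 and a worst rank of 658.

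**Figure D2:**
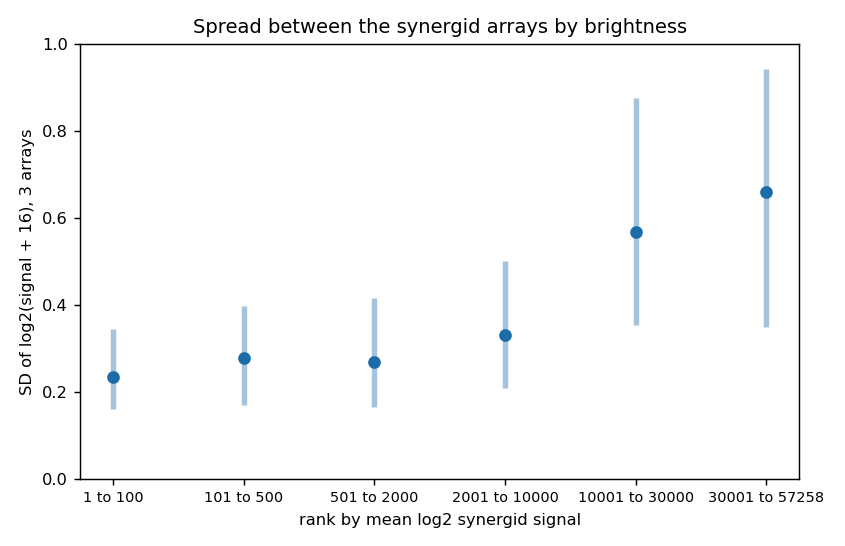
SD of log2(signal + 16) over the 3 synergid arrays for probe sets binned by their rank in mean log2 synergid signal, with points for the median and bars for the middle 50% of probe sets. The median stays between 0.24 and 0.33 down to rank 10000 and reaches 0.57 and 0.66 in the dimmer bins.

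A few probe sets ranked high on 1 synergid array and low on another. OsAffx.5121.1.S1_at, which has no gene here, gave 6034, 71692 and 26958 on arrays 1, 2 and 3 and ranked 1658, 9 and 162. The antipodal arrays gave it 155, 26.3 and 98.2. LOC4324576 ran the other way, with 46390, 3884 and 4479, ranks of 7, 2742 and 2303, and antipodal signals of 93646, 103298 and 60290. It was bright on synergid array 1 and on all 3 antipodal arrays and dim on synergid arrays 2 and 3. Of the 62 probe sets within rank 100 on all 3 antipodal arrays, 4 lay beyond 500 in the synergid ranking, LOC4324576 among them, and all 4 were highest on synergid array 1. The others were OsAffx.12675.1.S1_at, with synergid signals of 43329, 10331 and 8557, OsAffx.28903.2.S1_at, with 25475, 7234 and 4973, and OsAffx.19953.2.S1_at, with 41403, 4456 and 1773. These 4 were picked out after their values were seen, and the part of antipodal RNA in synergid array 1 was not tested. The set of 65 became 77 probe sets without that array, the 65 among them.

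The synergid markers differed in brightness. The carboxypeptidase gene cbp3 gave 30313, 60202 and 24556 on the synergid arrays at ranks 96, 19 and 195, against 1950, 759 and 1629 on the antipodal arrays. LTP-2, a lipid transfer protein gene, gave 4930, 17096 and 11066, and its antipodal signals were 85.4, 19.8 and 166. OC-VIII, a cystatin that inhibits cysteine proteases, gave 4081, 4647 and 2944, against 768, 766 and 1194. All 3 markers had every synergid signal above every antipodal signal, and cbp3 was the only one within rank 500. They were taken from an earlier contrast of these same arrays, so their direction is not independent evidence that the cells are synergids.

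Markers of other cells ranged from dim to well above the median gene on the synergid arrays. Of the egg cell list, 2 of 5 names matched, OsWOX8 and OsWOX9, and their summed signal was 358 to 552 on the synergid arrays, with 108 to 290 as the antipodal range. The 3 ovule sporophyte markers MADS13, MADS21 and MADS29 summed to 5431 to 10467 against 2117 to 3877, and MADS29 alone gave 3357, 8099 and 4932. Their worst ranks, from 3323 to 9963, all lay ahead of the median of all genes, 13517. The 15 endosperm storage genes summed to 3930 to 9319 against 3533 to 7570, with 8 of them beyond rank 28629. The 7 green tissue genes summed to 4836 to 10478 against 6942 to 12870, nearly all of it from CAB2R, at 4363, 3742 and 8698. The 8 epidermal Roc genes summed to 22766 to 29162 against 15916 to 25203, and Roc5, ROC1 and Roc2, the first of them, had worst ranks of 1075, 1370 and 3705. Roc5 gave 10040, 13009 and 7996. None of these genes reached 500 and none was listed at 0 on a synergid array, while no name on the pollen list matched a gene. The sums for the egg cell and ovule lists lay higher on all 3 synergid arrays than on any antipodal array, and their part in the synergid ranking was not tested.

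Families known for secretion, defence and walls were read against the shares within 500, 1.46% of all genes and 2.73% of the genes with a name. With so few genes a list their shares are counts of 0 to 3 members. Apart from cbp3, no protease, cystatin, lipid transfer protein or chitinase gene of the lists lay within 500. Among 64 thioredoxin, peroxidase and glutathione genes, OsTrx15, with 20816, 22173 and 26811, the glutaredoxin GRXC6 at a worst rank of 380 and the superoxide dismutase sodA at 451 did. Among 60 expansin and wall synthesis genes EXPB4, a beta-expansin, did, with 19821, 24350 and 23275, and the cellulose synthase gene CESA6 stood at 1305. The 12 chitinase, pathogenesis-related and inhibitor genes had a median worst rank of 42115.5, which became 25509.5 without synergid array 2. Their first, XIP-I, gave 1098, 1950 and 892. The 23 aquaporins were led by OsTIP1;1 at 878, and the 7 metallothioneins by MT-2 at 1312, both outside 500. Of 8 genes for LEA proteins, dehydrins and salT, Dip1 lay at 366.

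**Figure D3:**
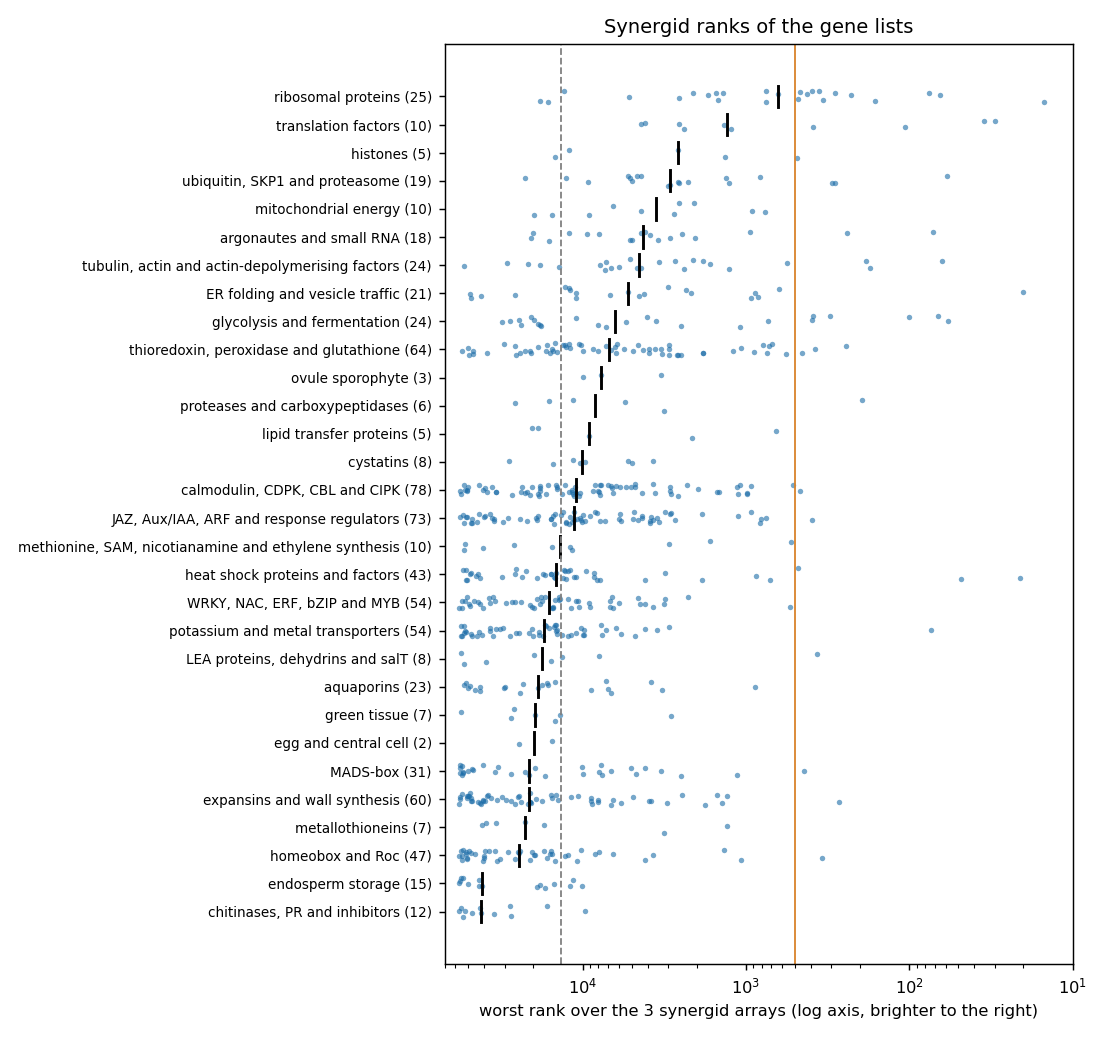
Worst rank over the 3 synergid arrays (log axis, brighter to the right) of each gene in the 30 lists, with the number of genes in brackets, a black tick at each list's median, an orange line at rank 500 and a dashed line at the median of all genes, 13517. Ribosomal proteins and translation factors have the brightest medians as drawn, 633 and 1303.5, but with every probe set of a gene counted translation factors, at 3223, come behind histones, at 2618.

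Of the 283 regulator genes in the calmodulin, MADS-box, homeobox, WRKY to MYB and hormone response lists, 4 (1.41%) lay within 500. The share was 1.46% over all genes and 2.73% over the genes with a name, from which the lists were drawn. Hox16, a homeodomain-leucine zipper gene, gave 17946, 18419 and 19590 at a worst rank of 342, with an SD of 0.06 on the log2 scale. MADS24, of the SEPALLATA class of floral MADS-box genes, gave 15623, 24575 and 18516 at 440. JAZ1, a repressor of jasmonate responses, gave 16703, 25770 and 22007 at 393. The calmodulin-like gene CML15 gave 16020, 15762 and 14316 at 468. No member of the 54 WRKY, NAC, ERF, bZIP and MYB genes reached 500, and EREBP-1 came closest at 536. The histone H2B.5, with 14828, 18507 and 20210, was the only 1 of 5 matched histone genes within 500, and SAMDC, for polyamine synthesis, led the methionine and ethylene list at 528.

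In all, 45 of the 757 genes in the 30 lists lay within 500. Further named genes there, picked for mention after their values were seen, included the trehalose-6-phosphate phosphatase genes OsTPP7, with 17785, 16171 and 17878, and OsTPP1, with 30410, 14445 and 18289. The sugar exporter gene OsSWEET11 gave 24372, 21774 and 16206. The zinc finger genes OsC3H33 and OsC3H37 had worst ranks of 343 and 444 and the stress-associated protein gene OsSAP8 of 460. QM1, a ribosomal L10 gene outside the symbol list, stood at 198, the 14-3-3 gene GF14F at 199, TOM20, for import into mitochondria, at 316 and P5CS1, for proline synthesis, at 474.

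Set against the antipodal arrays, most of the brightest synergid probe sets were bright there too. Of the 65, 47 also ranked within 100 on all 3 antipodal arrays, which is 72.3% of the synergid set and 75.8% of the 62 in the antipodal set. Without antipodal array 2, 51 of the 65 did. Only 2 of the 65 had every synergid signal above every antipodal signal, a share of 3.08% beside 4.46% of all 57258 probe sets. The opposite order held for 7 of them, 10.8%, beside 7.79% of all. The pair lying above were LOC4338802 and OsAffx.11145.1.S1_s_at. Without antipodal array 2 the counts were 3 above and 7 below, beside 11.0% and 11.6% of all.

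**Figure D4:**
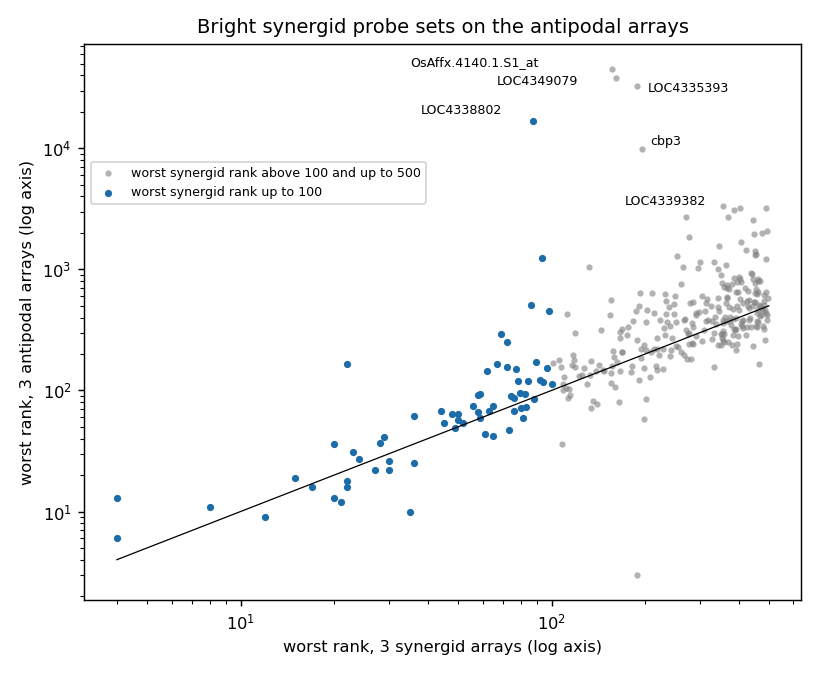
Worst rank on the 3 synergid arrays against worst rank on the 3 antipodal arrays (both log axes) for the 337 probe sets within 500 on every synergid array, with blue points for the 65 within 100 and a line where both ranks are equal. Most points lie near the line, and LOC4338802, OsAffx.4140.1.S1_at, LOC4349079, LOC4335393 and cbp3 lie far above it.

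Few bright synergid probe sets were dim on the antipodal arrays. Of the 337 within 500, 248 were also within 500 on every antipodal array. Beyond rank 1000 on each of the 3 antipodal arrays lay 6, and the same 6 came out without antipodal array 2. LOC4338802, the only one of them among the 65, had antipodal signals of 236, 1232 and 607 against at least 34083 on every synergid array. OsAffx.4140.1.S1_at, without a gene here, gave 25931, 75495 and 30350 in synergids against 10.2, 283 and 247 in antipodals. LOC4349079 gave 25743, 48858 and 30006 against 27.9, 94.5 and 156. LOC4335393 gave 23638, 53416 and 41867 against 86.2, 296 and 41.1. The remaining ones were cbp3 and LOC4339382, the latter with 16395, 25717 and 21620 against 8463, 2939 and 5790. All 6 were highest on synergid array 2, and 5 were lowest on synergid array 1. OsAffx.4582.1.S1_x_at, the point far below the line in the plot of the ranks, was bright in both cell types, with synergid ranks of 2, 42 and 188 and antipodal ranks of 3, 2 and 1.

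The share of an array's signal that fell on its brightest 100 probe sets was the only value compared between cell types by a test. It was 8.11%, 10.5% and 9.41% on synergid arrays 1, 2 and 3, and 10.7%, 18.7% and 9.86% on the antipodal arrays. The ranges overlapped little, with synergid array 2 above antipodal array 3, and antipodal array 2 lay far above the rest. The means were 9.33% ± 1.17 (SD, n = 3) and 13.1% ± 4.88 (SD, n = 3), a difference of -3.79 percentage points with a two-sided exact permutation p of 0.2, where 0.1 is the smallest p that 3 against 3 arrays allow. Without antipodal array 2 the difference was -0.977 percentage points (exact permutation p = 0.4). The brightest 500 probe sets held 25.6%, 27.9% and 26.9% of the signal on the synergid arrays.

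**Figure D5:**
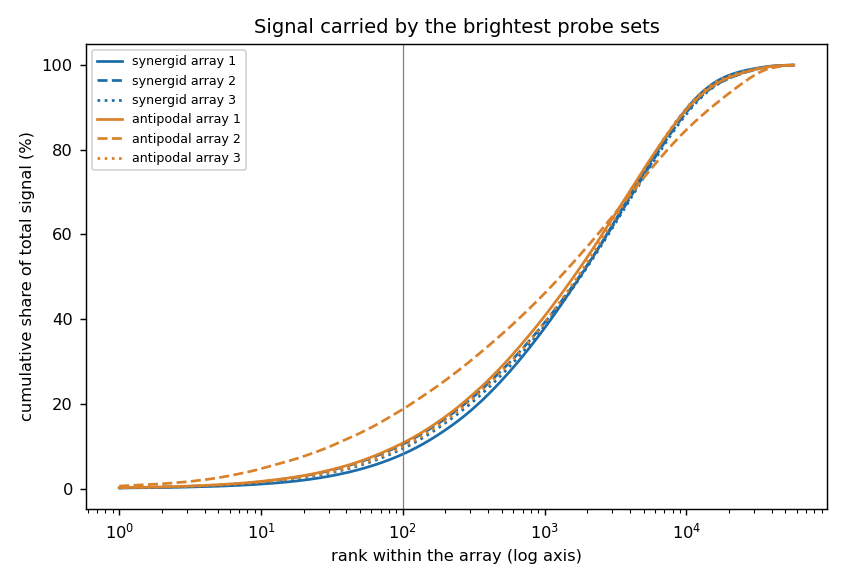
Cumulative share of total signal against rank within the array (log axis) for the 6 arrays, blue for synergid and orange for antipodal, with a grey line at rank 100. The synergid curves cross the line at 8.11%, 10.5% and 9.41%, and antipodal array 2 runs above the others at 18.7%.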

How the data were processed

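The table the authors deposited holds signal intensity on a linear scale for 57381 probe sets and 6 arrays of amplified, biotin-labelled RNA, which per the labels' protocols went through a 2-cycle cDNA synthesis. Signals came from GCOS 2.0 with MAS5, per the submitters' processing notes. MAS5 works on each array separately. All columns were matched to a sample by title. The 123 control probe sets were left out, and signals were ranked within each array with no further normalisation. The number of arrays limits the precision.

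Names came from the platform annotation, brought up to date with RefSeq genes of assembly ASM3414082v1. Among 57258 probe sets, 22436 matched 1 gene, 95 several and 34727 none, and the tables carry no gene descriptions. In the lists and in counts over genes, a gene was represented by its probe set with the highest mean log2 signal over the 6 arrays. Elsewhere its best placed probe set was used, so values for ACT1 may differ.

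The members and gene lists were chosen with earlier results of these data known. The lists were symbol patterns, and after the gene tables had been read homonyms were removed and lists were added. The naming rule took, by worst synergid rank, the first 20 named genes, 10 genes known by locus and 5 probe sets without a gene, with the 5 steadiest and 5 least steady of the top set, up to 3 first members of each list, the markers, the edge of the limit, and probe sets in the top 20 of 1 array and beyond rank 1000 on another. Genes outside it were chosen after their values were seen.

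The share of signal was tested by an exact permutation test over all arrangements of the arrays, and its p measures only the spread between these arrays. Trimmed means were taken with scipy 1.17.1. The synergid to antipodal difference of single genes was not tested. The ranking was checked on simulated data. Tables were handled with pandas 2.3.3 in Python 3.11.15 and drawn with matplotlib 3.10.9. Features of the encoded proteins were planned but not analysed here, and no genome or sequence was used.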

Additional observations from a re-analysis of the deposited data

How the results depend on the processing

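The 65 probe sets became 28, 133 and 337 at rank limits of 50, 200 and 500, and 100 by construction when the highest by mean log2 signal were taken. All 65 were among the latter. Leaving out each synergid array gave 73 to 77, and the other alternatives 59 to 94, with 59 where suffixed probe sets were left out and 28 of those shared. Held-out shares were 97.3% and 100% at limits of 200 and 500. The count of bright probe sets with every synergid signal above every antipodal signal was 8 after quantile normalisation and 2 to 5 when an array was left out, with 4 without synergid array 1 and 5 without antipodal array 3. The count below was 1 after quantile normalisation, 11 after median centring and 7 to 30 when an array was left out, with 24 without synergid array 2, 11 without antipodal array 1 and 30 without antipodal array 3, so the split of the 65 into above and below depends on the scaling. With fewer arrays a complete separation is easier to reach. Among these alternatives the share over all 57258 probe sets was worked out only without antipodal array 2, at 11.0% above and 11.6% below. The other counts have no such share beside them and are not read as results about the 65. The number also within 100 on the antipodal arrays stayed at 47 to 51, list genes within 500 at 45 to 52, and the median spread was 0.17 after quantile normalisation and 0.14 after median centring, less than the 0.23 reported. The difference in signal share ranged from -5.41 to -0.977 when an array was left out. With the replicate block, arrays paired by number, it was -3.79 with an exact permutation p of 0.25, the smallest p that so few pairs allow. Nothing in the labels pairs the arrays. Of 114 alternatives for the worst ranks of named probe sets, 88 moved the value by less than the spread between arrays and 26 by more. For the list medians these were 71 and 49 of 120. A worst rank is a maximum, so leaving out an array that does not hold it cannot move it. Most of the 88 were therefore fixed in advance and do not show that the named ranks are steady. Counting every probe set of a gene moved 8 of the 30 medians by over 1.5 times, and leaving out an array moved 2, ribosomal proteins (393 without synergid array 1) and chitinases (25509.5 without synergid array 2). Chitinases had the dimmest median reported, but endosperm storage genes did when any synergid array was left out. The protein feature alternatives were not run, because no protein sequences were used here.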
